A study of Rattus norvegicus with 2 samples.

Results

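The genes of the interferon response and of MHC class I antigen presentation were examined in the rat line RBL-2H3, which derives from a basophilic leukemia and serves as a model of mast cells and basophils. The IgE group was 1 library of wild type RBL-2H3 cells incubated with IgE, and the untreated group was 1 library of wild type RBL-2H3 cells with no treatment. RNA was poly(A)-selected and sequenced. The labels give neither a dose nor a duration, and they do not say whether an antigen was added to crosslink the IgE. The line is a single tumour-derived line, so the values describe that line only. With 1 library per group there is no replicate check on any difference, and no p-value is given for a difference other than those in the authors' deposited table.

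Members were taken by name from the table of all genes, as the interferon receptor (Ifnar and Ifngr), Stat, Irf, Gbp, Oas, Mx, Isg, Ifi and Ifit names, every name of the rat MHC (RT1-), the Tap and Tapbp names, B2m, Bst2, Rsad2 and Usp18. This gave 65 genes of 14913. Log2 folds (IgE over untreated) are given for the 57 members with 20 or more reads over both libraries, and the other 8 are given as reads. At that limit Gbp1 lay just inside with 22 reads, and Mx1 and Mx2 lay just outside with 15 reads each. Of the Gbp1 reads 20 came from the IgE library, so it passed the limit only through the library where it was high. Some names are of other functions. The RT1 names include 3 genes of MHC class II, and the Irf names include 3 genes named for IRF2-binding proteins. Isg20l2 encodes a nuclease of ribosomal RNA processing, and Ifitm5 is known as a bone gene. Other genes that the name patterns cover were not analysed here.

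As background, type I interferon binds a receptor of the chains IFNAR1 and IFNAR2, and the receptor-bound kinases JAK1 and TYK2 then activate STAT proteins. STAT2 and IRF9 are parts of a complex that binds the interferon-stimulated response element (ISRE) of antiviral genes, while interferon gamma acts through IFNGR1 and IFNGR2 and STAT dimers that bind the gamma-activated sequence (GAS). MHC class I heavy chains pair with beta-2-microglobulin and present peptides that the proteasome makes and the TAP transporter carries into the endoplasmic reticulum. Mast cells carry interferon receptors and MHC class I, and STAT5 acts in them below the growth factor receptor KIT and the IL-3 receptor.

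The libraries held 26268330 counted reads with IgE and 20917968 untreated, and 81506 and 64689 of these fell on the 65 members. That was 0.310% of the IgE reads (exact Clopper-Pearson 95% interval 0.308 to 0.312) and 0.309% of the untreated reads (0.307 to 0.312), so the members together took the same share within counting error. All 9 mast cell and basophil markers were counted, with 215810 reads in the IgE and 166438 in the untreated library. The summed level of these markers was 8242 CPM (counts scaled to library size with TMM) with IgE and 7931 CPM untreated. The counted markers of macrophages (3 of 6 listed) summed to 3.21 CPM with IgE and 5.48 CPM untreated, and all 3 were lower with IgE on few reads. For Cd68 (40 reads with IgE and 43 untreated, log2 fold -0.42, -1.08 to 0.23) the interval includes no change. That of Csf1r (37 and 46 reads, -0.63, -1.30 to 0.02) does so too. Msr1 had 7 reads with IgE and 26 untreated (log2 fold of IgE over untreated -2.13, -3.66 to -0.97). Counted markers of B cells (2 of 4) summed to 12.1 and 10.6 CPM, and the T cell marker Lck stood at 4.74 and 5.15 CPM. Itgax, listed as a dendritic cell marker, stood at 197 CPM in both libraries. Col3a1, listed as a marker of fibroblasts, stood at 253 CPM with IgE and 281 CPM untreated. The markers of other cell types not counted here were not analysed, and the part of these levels in the results below was not tested. In such bulk libraries fewer cells carrying a transcript and less of it per cell cannot be told apart.

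Most members lay close to level between the libraries. Of the 57 members with a log2 fold, 1 was at least 2-fold higher with IgE (Gbp1) and 1 was lower by as much (Oas1i), which is 1.75% each. Of all 12102 genes with 20 or more reads, 1.33% were as far apart upwards, 1.30% downwards and 2.63% in either direction. The median log2 fold of the 57 members was -0.01, against 0.00 for all such genes, and 28 members were above 0 and 29 below (49.1% above, against 51.1% of all genes). Both members past 2-fold had under 100 reads. Of all genes with 20 to 99 reads, 16.3% were at least 2-fold apart in either direction, against 2 of the 8 members in that range. At 2000 or more reads, where the 19 members ranged from -0.24 (Irf2bpl) to 0.16 (B2m), the log2 fold of all genes had an SD of 0.14 and 0.00% of genes were 2-fold apart.

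**Figure D1:**
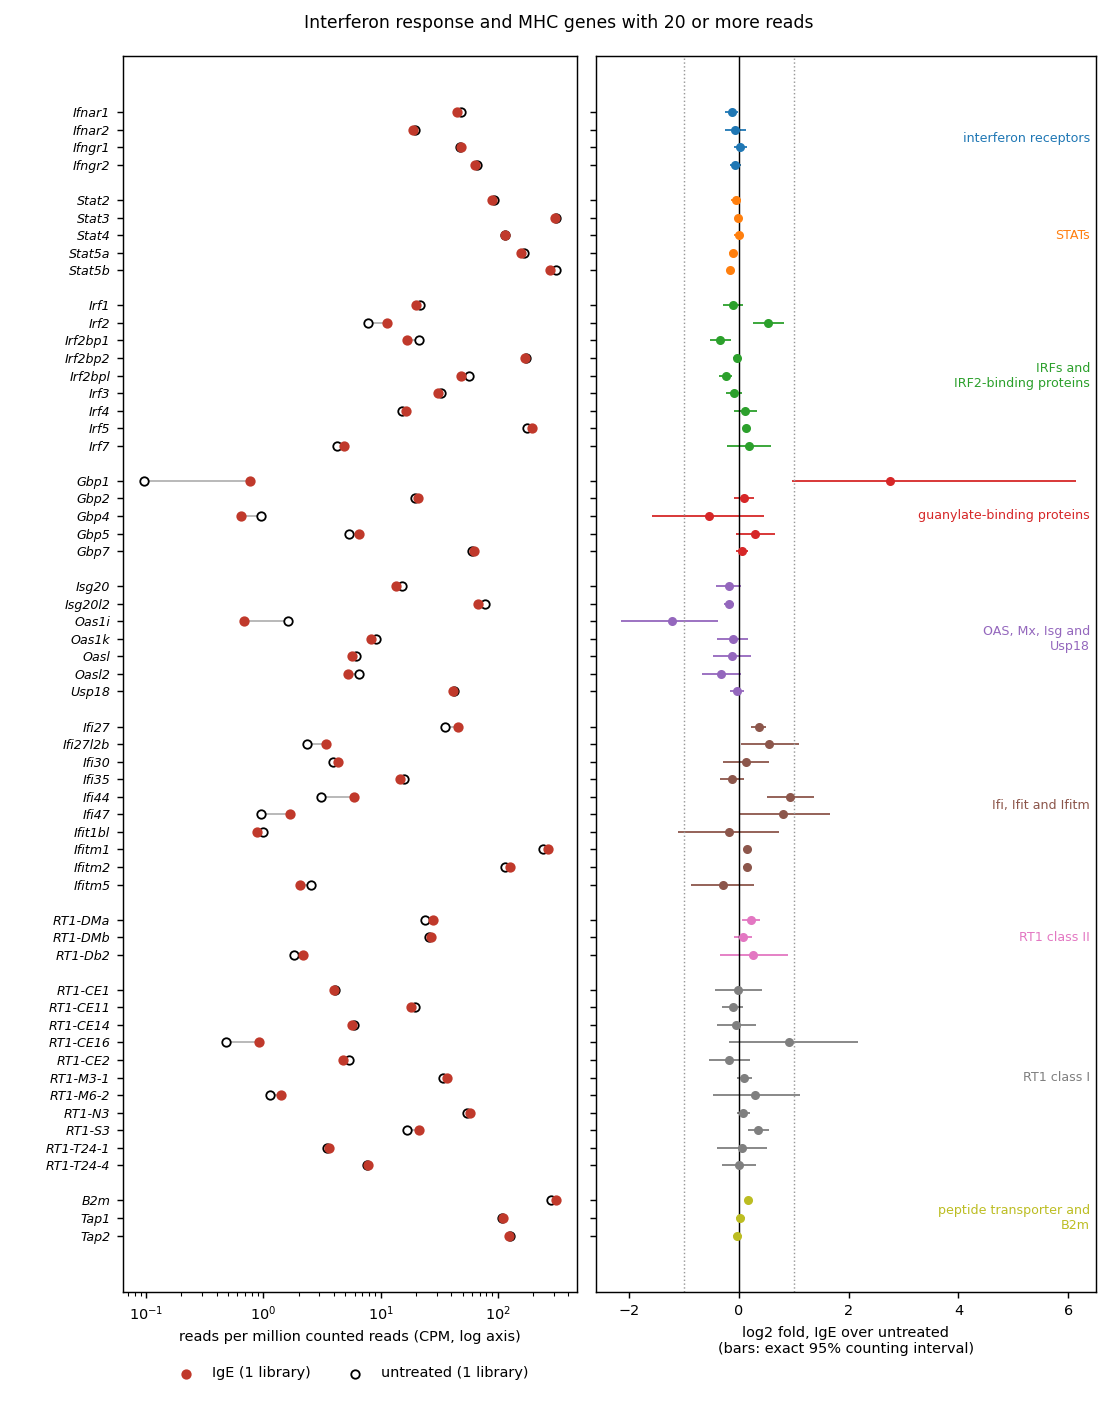
Level of each member with 20 or more reads in the IgE (filled) and untreated (open) library, in CPM on a log axis (left), and its log2 fold, IgE over untreated, with the exact 95% counting interval (right), by role. The filled and open points nearly coincide for most members, and the wide gaps are those of Gbp1 and Oas1i, which have few reads.

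**Figure D2:**
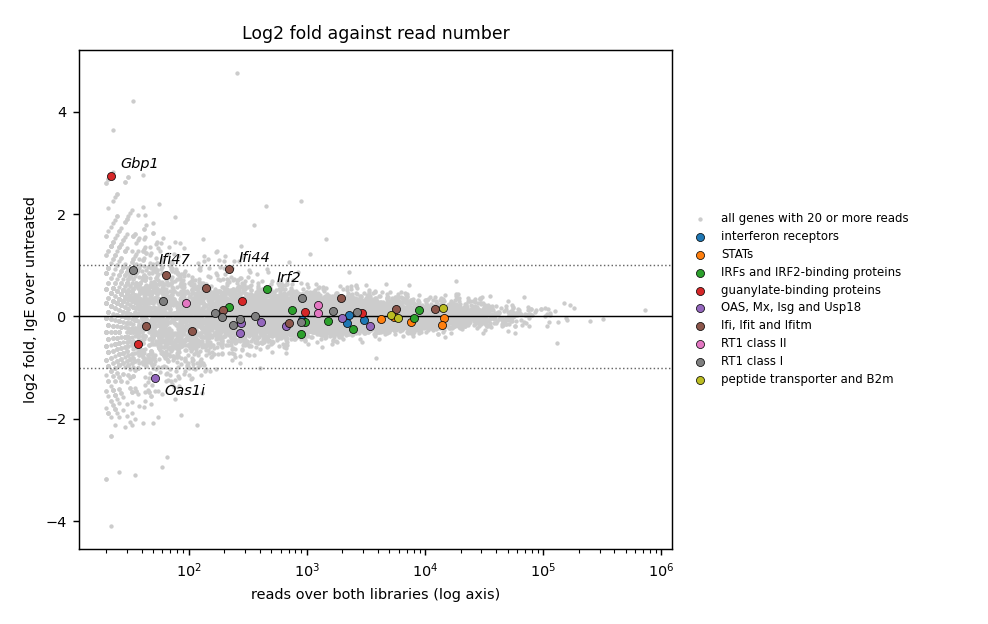
Log2 fold, IgE over untreated, against the reads over both libraries (log axis) for all genes with 20 or more reads (grey) and for the members, coloured by role. Dotted lines mark a 2-fold difference, and the members lie inside the grey cloud, with Gbp1 at 2.75 near its upper left edge.

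The interferon receptor chains were all counted and nearly level. Ifnar1 stood at 44.4 CPM with IgE and 48.7 CPM untreated (log2 fold -0.13, exact 95% counting interval of the read ratio -0.26 to -0.01), and Ifnar2 at 18.8 and 19.7 CPM (-0.07, -0.26 to 0.13). For the gamma interferon receptor, Ifngr1 stood at 48.2 CPM with IgE and 47.3 CPM untreated (0.03, -0.09 to 0.15), and Ifngr2 at 63.9 and 66.9 CPM (-0.07, -0.17 to 0.04). The interval of Ifnar1 alone excluded no change, and its fold was of the size of the SD of 0.14 over all genes with 2000 or more reads. Such intervals take each read as independent and cover counting error only. They cover neither repeated reads of the same molecule nor spread between cultures, since no other culture of either group was sequenced.

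All 5 counted STAT genes were slightly below 0, with a median of -0.06. The share above 0 was 51.1% for all genes with 20 or more reads, and 3 of the 5 intervals include no change. Stat5b, which with Stat5a relays KIT and IL-3 signals in mast cells, had 7287 reads with IgE and 6528 untreated, or 278 and 311 CPM (-0.16, -0.21 to -0.11). Stat5a stood at 156 CPM with IgE and 168 CPM untreated (-0.11, -0.17 to -0.04). The intervals of these neighbouring genes excluded no change. Stat2, the partner of IRF9, stood at 89.0 CPM with IgE and 92.6 CPM untreated (-0.06, -0.14 to 0.03). Stat3, which acts below IL-6 type receptors and lies next to Stat5a in the RefSeq gene order, was at 307 and 311 CPM (-0.02, -0.07 to 0.03), and Stat4, a mediator of IL-12 signals in lymphocytes, at 115 CPM in both libraries (-0.01, -0.08 to 0.07).

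The IRF genes lay on both sides of 0. Irf2, a repressor that competes with IRF1 at the ISRE, had 298 reads with IgE and 165 untreated, or 11.4 and 7.86 CPM (0.53, 0.25 to 0.82). Among the 15 members with at least 100 and under 500 reads it had the third highest fold, after Ifi44 and Ifi27l2b. Of all genes in this range of reads 1.60% were at least 2-fold apart, their SD was 0.37 and their 95th percentile 0.55. Irf5, which drives inflammatory cytokine genes below Toll-like receptors, stood at 196 CPM with IgE and 178 CPM untreated (0.13, 0.07 to 0.19). Irf7, the main amplifier of type I interferon genes, had 128 and 90 reads (0.19, -0.21 to 0.59), and Irf4, a regulator of lymphocyte and mast cell gene expression, 434 and 321 reads (0.12, -0.10 to 0.33). Both intervals include no change.

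Irf1, an activator of MHC class I and other interferon gamma targets, stood at 19.9 CPM with IgE and 21.5 CPM untreated (-0.11, -0.29 to 0.08). Irf3, which is switched on by phosphorylation in virus-infected cells, stood at 30.9 and 32.8 CPM (-0.09, -0.24 to 0.06). The 3 genes named for IRF2-binding proteins all lay below 0, though the interval of Irf2bp2 includes no change. Irf2bp1 had 442 reads with IgE and 447 untreated, or 16.9 and 21.3 CPM (-0.34, -0.53 to -0.14), Irf2bpl stood at 48.3 and 57.0 CPM (-0.24, -0.35 to -0.12), and Irf2bp2 at 169 and 174 CPM (-0.04, -0.10 to 0.02). Irf9, the DNA-binding subunit of the ISRE complex, had 13 reads with IgE and 1 untreated and was too thinly counted for a fold.

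Stretches of promoter are shown for some of the members that hold an ISRE in the 250 bases before to 50 after the annotated start. Binding there is the textbook route from the STAT2 and IRF9 complex to these genes. The letters searched were GAAA, any 2 bases and GAAA again (ISRE) and TTCNNNGAA (GAS), on both strands, in RefSeq windows of the build GRCr8, which differs from the rn6 build that the submitters' processing notes name. All 65 members matched a RefSeq symbol, and 57 had a window. An ISRE stood in the windows of 21 of these 57 (36.8%), against 4.12% of all 27457 RefSeq symbols with a window, and a GAS in 8 (14.0%), against 9.39%. A gene with several starts was counted once, as holding the match if any of its windows did. None of the GAS matches overlapped an ISRE. A match is a run of letters and was not tested as a binding site. For Gbp1, the member with the highest fold, and B2m, the class I light chain, the 250 bases before the start are given 5′ to 3′ in the direction of the gene, with the ISRE in capitals. Gbp1 has 2 annotated starts, and the window of the downstream one is shown, whose 3 matches include a pair that overlap.
Gbp1, chr2:234072187-234072436, strand +: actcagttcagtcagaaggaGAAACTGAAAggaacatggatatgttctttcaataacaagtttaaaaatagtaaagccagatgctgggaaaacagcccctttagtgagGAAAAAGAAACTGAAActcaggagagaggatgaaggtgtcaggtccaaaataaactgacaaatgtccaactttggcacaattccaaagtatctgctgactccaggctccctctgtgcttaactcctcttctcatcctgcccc
B2m, chr3:129549080-129549329, strand +: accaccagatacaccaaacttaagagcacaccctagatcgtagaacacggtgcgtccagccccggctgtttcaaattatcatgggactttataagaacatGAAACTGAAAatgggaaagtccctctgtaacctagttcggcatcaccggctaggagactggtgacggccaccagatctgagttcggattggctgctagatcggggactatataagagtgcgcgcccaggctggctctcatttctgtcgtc

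In 30-base stretches round the ISRE nearest the upstream end, the other Gbp genes held it close to the start and on the opposite strand, while Oas1i and Oas1a each held a pair of overlapping matches on the gene's own strand. Those of RT1-S3, RT1-S2 and the transporter genes are shown as class I examples, and RT1-N3, not shown, also holds a match.
Gbp2: agttttttagTTTCACTTTCattgtcttaa
Gbp4: agaagcagggTTTCGATTTCggttcccttt
Gbp5: acttgtgtagTTTCAATTTCagtttagagg
Gbp7: gcctttgtagTTTCAATTTCagttctctgt
Ifi44: gcacactgagTTTCAGTTTCatttcccagg
Oas1i: cccctcccggGAAATCGAAACTGAAAatct
Oas1a: cccctctcggGAAATGGAAACTGAAAatct
RT1-S3: ctcctgctgcTTTCTCTTTCataaagacac
RT1-S2: ctcctgctgcTTTCTCTTTCatgaagacac
Tap1: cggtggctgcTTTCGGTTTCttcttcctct
Tap2: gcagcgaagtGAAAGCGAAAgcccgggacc

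Members with an ISRE match lay on both sides of 0. All 5 Gbp genes, both transporter genes and B2m held a match, and none of the receptor or STAT genes did. The 18 members with a match and a fold had a median log2 fold of 0.09, with 12 above 0, and the 32 with a window, a fold and no match had a median of -0.05, with 12 above 0. Both the highest member, Gbp1, and the lowest, Oas1i, held matches. Over the whole table, 268 of the 8560 genes with a window and 20 or more reads held an ISRE, with a median of 0.00. Of the 268, 2 were at least 2-fold higher (0.746%) and 4 lower by as much (1.49%). Of all 12102 genes with 20 or more reads the shares were 1.33% and 1.30%. That base is unlike the 268, since it also holds genes without a window. The shares among genes with a window and no match were not computed. Gbp1 is itself among the 2 and Oas1i among the 4.

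**Figure D3:**
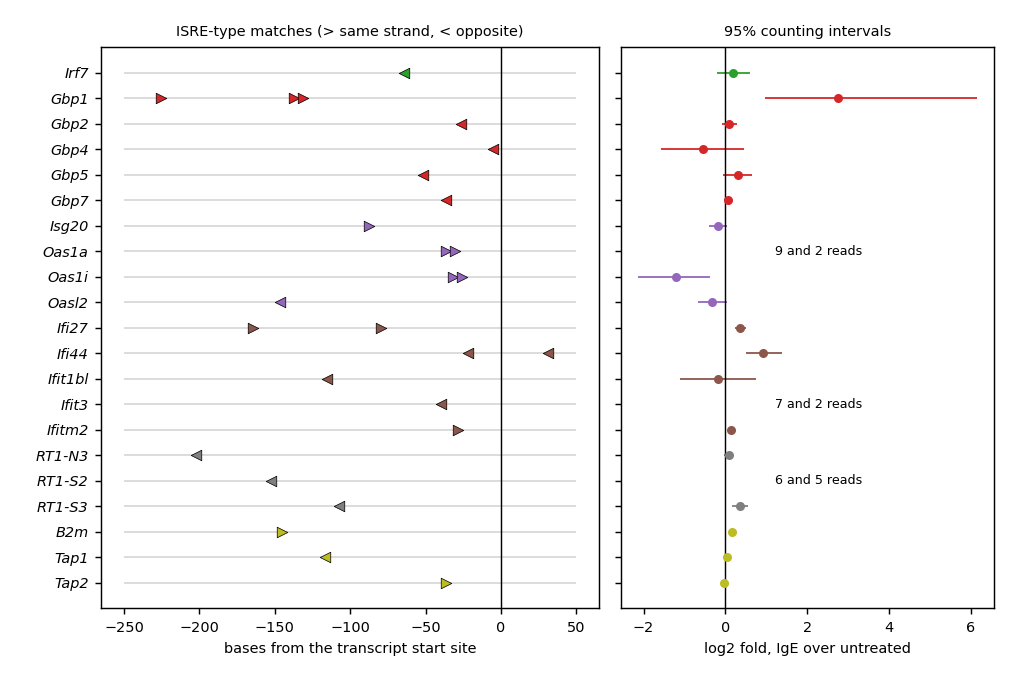
Position of each ISRE-type match in bases from the annotated start (left; arrowheads pointing right lie on the strand of the gene, those pointing left on the opposite strand) for the 21 members that hold one, with their log2 fold, IgE over untreated, and 95% counting interval (right). For the 3 members under 20 reads the reads with IgE and untreated are printed in that order, and folds of members with a match lie on both sides of 0.

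The guanylate-binding proteins, large interferon-inducible GTPases that attack vacuoles and cytosolic microbes, included the member with the highest fold. Gbp1 had 20 reads with IgE and 2 untreated, or 0.764 and 0.0953 CPM (2.75, 0.96 to 6.14), and the fold was 1.67 with a prior of 5 counts. The other Gbp genes lay closer to level. Gbp2 stood at 21.0 CPM with IgE and 19.7 CPM untreated (0.09, -0.09 to 0.28), Gbp5, which also promotes inflammasome assembly, at 6.57 and 5.34 CPM (0.30, -0.05 to 0.66), and Gbp7 at 62.9 and 60.3 CPM (0.06, -0.05 to 0.17). Gbp4 had 17 reads with IgE and 20 untreated (-0.54, -1.58 to 0.45). The intervals of these 4 genes all include no change. Gbp1 stood in repeated identical rows of the deposited table, as did Oas1k and RT1-S2.

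Genes of the OAS family, which sense double-stranded RNA, and the Isg genes were all below 0 among those with a fold, with a median over this role of -0.18. This role had 7 folds, and 5 of their intervals include no change, while 51.1% of all genes were above 0. Oas1i had 18 reads with IgE and 34 untreated, or 0.687 and 1.62 CPM (-1.21, -2.15 to -0.37). Oas1a, another copy of Oas1, had 9 reads with IgE and 2 untreated, so the copies lay on opposite sides of the ratio of the library totals on few reads. Oas1k stood at 8.36 CPM with IgE and 9.05 CPM untreated (-0.11, -0.40 to 0.17). The OAS-like genes Oasl (-0.12, -0.47 to 0.23) and Oasl2 (-0.32, -0.67 to 0.03) had 149 and 137 reads with IgE and 130 and 137 untreated.

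The antiviral GTPase genes Mx1 and Mx2, among the most interferon-inducible genes of many cells, had fewer than 10 reads in each library. Mx1 had 6 reads with IgE and 9 untreated, and Mx2 had 8 and 7. Isg20, an exonuclease induced by interferon, stood at 13.4 CPM with IgE and 15.2 CPM untreated (-0.19, -0.41 to 0.04), and Isg20l2 at 68.1 and 77.2 CPM (-0.18, -0.28 to -0.08). Usp18, which removes ISG15 from proteins and damps signalling at IFNAR2, had 1080 reads with IgE and 890 untreated, or 41.2 and 42.4 CPM (-0.04, -0.17 to 0.09), and was level.

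The Ifi, Ifit and Ifitm names had more members above 0 than below, 7 against 3, with a median of 0.15. The share above 0 was 51.1% for all genes with 20 or more reads, and 4 of these 10 intervals include no change. Ifi44, an interferon-induced gene that in human cells restrains virus growth, had 155 reads with IgE and 65 untreated, or 5.92 and 3.10 CPM (0.93, 0.51 to 1.38), just short of 2-fold. Ifi47, an immunity-related GTPase in mouse, had 44 and 20 reads (0.80, 0.03 to 1.66). Ifi27, a small mitochondrial membrane protein, had 1196 reads with IgE and 745 untreated, or 45.7 and 35.5 CPM (0.36, 0.23 to 0.50), and its neighbour Ifi27l2b had 90 and 49 reads (0.55, 0.04 to 1.09). All 4 intervals lay above 0. The fold of Ifi27 was the highest among the 15 members with at least 500 and under 2000 reads, where the 95th percentile of all genes was 0.35 and 0.122% were at least 2-fold apart.

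The Ifitm genes, which hinder the fusion of viruses with endosomes, differed in read number, and Ifitm1 and Ifitm2 were slightly higher with IgE. Ifitm1 stood at 268 CPM with IgE and 243 CPM untreated (0.14, 0.09 to 0.20), and Ifitm2 at 127 and 114 CPM (0.15, 0.07 to 0.22). Both folds were about the SD of all genes with 2000 or more reads. Ifitm5 had 54 reads with IgE and 53 untreated (-0.29, -0.87 to 0.28), and Ifitm6 had 3 and 0. Ifi35, a partner of NMI, stood at 14.6 CPM with IgE and 15.8 CPM untreated (-0.12, -0.34 to 0.10). Ifit1bl had 23 reads with IgE and 21 untreated (-0.18, -1.11 to 0.74). Ifit3, an antiviral RNA-binding family member that is strongly induced by type I interferon, had 7 and 2 reads.

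The genes of MHC class I and its peptide transporter differed little between the libraries. B2m, the light chain shared by class I molecules, had 8275 reads with IgE and 5931 untreated, or 316 and 283 CPM (0.16, 0.11 to 0.21). The subunits of the peptide transporter were level, Tap1 at 110 CPM with IgE and 108 CPM untreated (0.03, -0.05 to 0.11) and Tap2 at 124 and 126 CPM (-0.03, -0.10 to 0.05). Of 13 RT1 class I names 11 had a fold, with a median of 0.06, 7 above 0 and 4 below.

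RT1-S3, listed in RefSeq with the synonym H2-T23, the mouse Qa-1 gene whose product shows leader peptides to NK cell receptors, had 558 reads with IgE and 350 untreated, or 21.3 and 16.7 CPM (0.35, 0.16 to 0.55). It was the only RT1 class I gene whose interval excluded no change. RT1-N3, its neighbour, stood at 57.9 CPM with IgE and 54.7 CPM untreated (0.08, -0.03 to 0.19), and the other neighbour RT1-T24-4 at 7.75 and 7.72 CPM (0.01, -0.30 to 0.31). RT1-M3-1, whose mouse counterpart H2-M3 presents formylated bacterial peptides, stood at 36.6 and 34.2 CPM (0.10, -0.04 to 0.24). RT1-T24-1 (95 reads with IgE and 73 untreated) was at 0.06 (-0.39 to 0.52) and RT1-M6-2 (37 and 24 reads) at 0.30 (-0.47 to 1.11).

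The class I genes of the RT1-CE region gave mixed values. RT1-CE11 stood at 18.2 CPM with IgE and 19.6 CPM untreated (-0.11, -0.30 to 0.08), RT1-CE2 at 4.74 and 5.34 CPM (-0.17, -0.55 to 0.21), RT1-CE14 at 5.73 and 5.91 CPM (-0.04, -0.40 to 0.31) and RT1-CE1 at 4.01 and 4.05 CPM (-0.01, -0.44 to 0.42). RT1-CE16 had 24 reads with IgE and 10 untreated (0.91, -0.17 to 2.17). All of these intervals include no change. RT1-S2 had 6 and 5 reads and RT1-M5 had 1 and 0. Class I genes of the MHC resemble each other closely and differ between rat strains, and reads from near-identical copies cannot be separated in these counts, so the split between RT1 names is uncertain.

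The 3 MHC class II members were all above 0, as were 51.1% of all genes with 20 or more reads. RT1-DMa and RT1-DMb, the chains of the DM molecule that exchanges peptides on class II, stood at 28.1 and 27.2 CPM with IgE, against 24.1 and 25.8 CPM untreated. Their log2 folds were 0.22 (0.06 to 0.39) for RT1-DMa and 0.07 (-0.09 to 0.24) for RT1-DMb. RT1-Db2, a class II beta chain gene, had 57 reads with IgE and 38 untreated (0.26, -0.35 to 0.90). Ifi30, a lysosomal thiol reductase that prepares antigens for class II, had 113 and 83 reads (0.13, -0.30 to 0.55). Cd74, the invariant chain of class II, had 5 reads with IgE and 7 untreated.

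**Figure D4:**
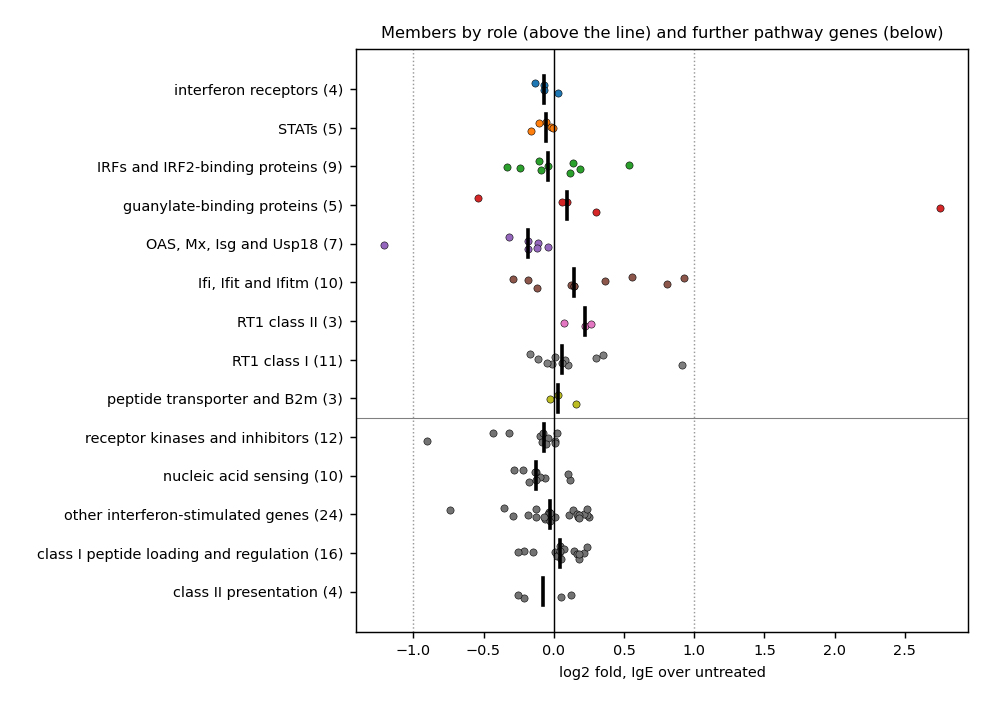
Log2 fold, IgE over untreated, of each member by role (above the line) and of further genes of the same pathways (below the line), with the number of genes in parentheses, a bar at the median and dotted lines at 2-fold. All medians lie within 0.25 of 0, and Gbp1 and Oas1i are the points beyond the dotted lines.

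None of the measured further genes of these pathways was 2-fold apart. Of all genes with 20 or more reads, 2.63% were at least 2-fold apart in either direction. That share was 1.60% at 100 or more and under 500 reads, and 0.00% at 2000 or more reads. A count of 0 in these lists therefore does not set them apart from other genes. Of 12 measured receptor kinases and inhibitors, 3 were above 0 and 9 below, with a median of -0.07. Beside this list and the next, 51.1% of all genes with 20 or more reads were above 0. The lowest were the feedback inhibitors of cytokine receptor kinases Socs3, at 4.16 CPM with IgE and 7.82 CPM untreated (-0.91, -1.27 to -0.55), and Socs1, at 7.94 and 10.7 CPM (-0.43, -0.71 to -0.15). The highest were the phosphatase gene Ptpn2 (0.02) and the STAT inhibitor Pias1 (0.01). Among 10 genes that sense nucleic acid or relay or regulate that signal, 2 were above 0 and 8 below (median -0.13). The lowest were the kinase Ikbke (-0.29, -0.46 to -0.11) and the DNA sensor Cgas (-0.22, -0.39 to -0.05). The highest were the RIG-I adaptor Mavs (0.12, -0.17 to 0.41) and the kinase Tbk1 (0.10, 0.04 to 0.17).

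Of 24 measured other interferon-stimulated genes, 11 were above 0 and 13 below, with a median of -0.03. Xaf1 (11 reads with IgE and 15 untreated, -0.74, -2.03 to 0.45) and the helicase Helz2 (817 and 839 reads, -0.36, -0.50 to -0.22) were lowest. The nuclear body gene Sp110 (949 and 638 reads, 0.25, 0.11 to 0.40) and Psmb9 (2077 and 1410 reads, 0.24, 0.14 to 0.34) were highest. Cxcl10, a chemokine strongly induced by interferon gamma, had 3 reads in each library.

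Class I peptide loading and its regulators had 16 measured genes, 13 above 0 and 3 below, with a median of 0.05. Of all genes with 20 or more reads, 51.1% were above 0. The immunoproteasome genes Psmb9, at 79.3 CPM with IgE and 67.2 CPM untreated (0.24, 0.14 to 0.34), and Psmb8, at 282 and 243 CPM (0.21, 0.16 to 0.27), were highest. Psmb9, Psmb8, Psmb10 and the proteasome activator genes Psme1 and Psme2 stand in both this list and that of the other interferon-stimulated genes. Their 5 folds, all above 0, ranged from 0.16 to 0.24, and the interval of Psmb10 (-0.01 to 0.34) includes no change. The lowest were Rfxank (-0.25, -0.44 to -0.07) and Rfx5 (-0.21, -0.59 to 0.17), subunits of the factor that binds MHC promoters. Both were also the lowest of the 4 measured genes of class II presentation (median -0.08), of which Ifi30, itself a member, and Rfxap (0.05) were the highest.

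Counted by their intervals, 19 of the 57 members differed beyond counting error (33.3%, against 38.5% of all genes), 12 of them higher with IgE and 7 lower. Over all 12102 genes, 2415 were higher and 2250 lower by the same measure, so the share of members that were higher (21.1%) was near that of all genes. The 12 were Irf2, Irf5, Gbp1, Ifi27, Ifi27l2b, Ifi44, Ifi47, Ifitm1, Ifitm2, RT1-DMa, RT1-S3 and B2m. The 7 were Ifnar1, Stat5a, Stat5b, Irf2bp1, Irf2bpl, Isg20l2 and Oas1i.

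In the authors' deposited table none of the 65 members had an adjusted p under 0.05, against 0.275% of all genes, and 5 had an unadjusted p under 0.05. The adjusted p that the authors' deposited table gives was 0.258 for Ifi44, 0.269 for Gbp1, 0.350 for Irf9, 0.505 for Oas1i and 0.889 for Irf2. The shorter list of genes in the authors' deposited table of calls had Gbp1 and Irf9 as up and Oas1i as down, which is 2 of 65 members up, against 1.41% of all genes, and 1 down, against 1.61%. These p-values come from 1 library per group and were recomputed with edgeR's exact test at an assumed coefficient of variation of 0.1, so they do not rest on replicates.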

How the data were processed

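Read counts of 1 IgE and 1 untreated RBL-2H3 library were used. Per the file headers, the authors deposited raw read counts per gene name with a log2 fold change, a p-value and an adjusted p-value. The build rn6 and the tools HISAT2 2.1.0, fastp 0.23.0 and DESeq2 1.18.1 are listed, without roles, in the submitters' processing notes. The counting tool and strand setting, not given in the sources used here, could affect overlapping genes and near-identical copies. Of 16990 rows, 2077 repeated a name with identical values and were dropped, which left 14913 names. An exact test in edgeR, with library totals and a dispersion fixed at a coefficient of variation of 0.1, gave the deposited log2 folds to within 4.67e-08 and the deposited p-values to within 3.47e-08.

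Log2 folds were differences of log2 CPM from edgeR 4.0.16 (R 4.3.3), with TMM scaling over the whole table and a prior of 0.5 counts, given at 20 or more reads over both libraries. Differences were described by a 2-fold rule and exact Clopper-Pearson 95% intervals, which cover counting error only, since 1 library per group allows no test. The calculation was tested on simulated counts that held counting error only. That test does not bear on spread between cultures. The alternatives tried were plain totals, size factors from DESeq2 1.42.0, a prior of 5 counts, no minimum or 100 reads, a 1.5-fold rule, repeated rows kept, and roles without their most extreme member. Every member with 20 or more reads was named, and of each further list the 2 highest and 2 lowest genes. The members and lists were chosen with earlier results of these data known. Promoter windows come from RefSeq (GRCr8). A gene of the further lists is not reported here.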

Additional observations from a re-analysis of the deposited data

How the results depend on the processing

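Of 171 alternative folds of single members and 85 alternative medians of roles and lists, all stayed within the member's or list's counting interval, under library totals, DESeq2 size factors, a prior of 5 counts and, for medians, other minimums of reads. A list's interval was taken as the medians of its members' bounds, which is wide beside a median, so staying inside it says little. With no minimum of reads the median of the IRF role went from -0.04 to 0.04, and that of all members from -0.006 to 0.006. Under the same setting the Ifi, Ifit and Ifitm median went from 0.15 to 0.26, and that of class II presentation from -0.08 to -0.21. With a minimum of 100 reads the RT1 class I median went from 0.06 to 0.01. The number of members at least 2-fold higher with IgE, 1 in the report, was 6 with no minimum of reads, 0 with a minimum of 100 reads, 4 with a 1.5-fold rule and 2 with the repeated rows kept, since Gbp1 is then listed again. The number at least 2-fold lower, also 1, was 0 with a minimum of 100 reads. In the further lists, a 1.5-fold rule gave 1 lower gene among the receptor kinases and inhibitors and 1 among the other interferon-stimulated genes, in place of 0, and no minimum gave 1 higher gene among the other interferon-stimulated genes. No paired analysis was possible because there was a single library in each group, which also meant that none could be omitted in turn. Depth limits the 8 members under 20 reads and Gbp1, Oas1i, Gbp4 and RT1-CE16, whose intervals are wide. Library totals shifted the median of all genes by -0.0092 on the log2 scale.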
